A study of Mus musculus with 18 samples.

Results

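The genes described here are 9 co-chaperones and their partners in protein quality control: the small heat shock proteins Hspb1, Hspb8 and Cryab, the BAG-domain proteins Bag1, Bag2 and Bag3, the HSP70 regulator Hspbp1, the ubiquitin ligase Stub1 and the polyubiquitin gene Ubb. They were taken by symbol, with earlier results of these data known, and all 9 were found among the 24421 genes of the count table. They were measured by RNA sequencing in 4T1, a mammary carcinoma line from BALB/c mice, and in 4T1R1 and 4T1R2, populations selected separately from 4T1 with 17-DMAG, which inhibits HSP90. Cells of each population were left untreated or given 1.5 µM 17-DMAG, which makes 6 groups of 3 libraries. The sample records give 48 h of exposure and the description of the series gives 2 h, so the time behind each response below is not settled. The selected cells are bulk populations and not single clones, and the sources differ on how they were selected.

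Small heat shock proteins hold unfolding proteins in a state from which HSP70 can take them over. BAG proteins release nucleotide and client from HSP70, and each BAG protein routes clients elsewhere: BAG1 towards the proteasome, BAG3 together with HSPB8 and STUB1 (also called CHIP) towards selective autophagy, while BAG2 inhibits STUB1. When HSP90 is inhibited, the transcription factor HSF1 is set free and drives heat shock genes, and STUB1 ubiquitinates HSP90 clients that can no longer fold.

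HSF1 binds repeats of the unit nGAAn in alternating orientation, so the promoters were searched for GAANNTTC, TTCNNGAA and the triplets GAANNTTCNNGAA and TTCNNGAANNTTC on both strands. The pairs equal their own reverse complements, the triplets contain both pairs, and the window ran from 250 bases before to 50 bases after the start of the gene in RefSeq (GRCm38.p6). A window was given for 8 of the 9 genes. GAANNTTC was found in 4 of these 8 genes, against 7.86% of all 32851 promoter windows, and TTCNNGAA, which 8.52% of all windows hold, in none. Either pair stood in 15.1% of all windows and either triplet in 0.603%. Hspb8, Bag3 and Hspb1 hold the same 8 letters, GAAGTTTC, which 1.21% of all windows hold on either strand (these letters were chosen after they were seen). The word begins 3 bases past the start in Hspb8 and 43 bases past it in Bag3, and in Hspb1 it begins at -117, with a further pair at -97. The windows are shown for Hspb8 (chr5:116422815-116423114, minus strand) and Bag3 (chr7:128523333-128523632, plus strand), which had the largest responses, for Hspb1 (chr5:135887669-135887968, plus strand), which has the pairs and almost no reads, for Bag2 (chr1:33757701-33758000, minus strand), which rose and has no pair, and for Stub1 (chr17:25832870-25833169, minus strand), which has a pair at -123 and did not pass the test in any response. Capitals mark the pairs, and each sequence runs 5′ to 3′ along the gene's strand.
Hspb8: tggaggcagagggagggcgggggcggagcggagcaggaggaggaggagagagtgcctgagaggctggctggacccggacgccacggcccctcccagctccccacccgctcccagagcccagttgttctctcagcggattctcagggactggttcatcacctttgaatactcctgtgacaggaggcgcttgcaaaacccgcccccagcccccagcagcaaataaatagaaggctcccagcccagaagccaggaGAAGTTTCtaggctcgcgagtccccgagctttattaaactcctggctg
Bag3: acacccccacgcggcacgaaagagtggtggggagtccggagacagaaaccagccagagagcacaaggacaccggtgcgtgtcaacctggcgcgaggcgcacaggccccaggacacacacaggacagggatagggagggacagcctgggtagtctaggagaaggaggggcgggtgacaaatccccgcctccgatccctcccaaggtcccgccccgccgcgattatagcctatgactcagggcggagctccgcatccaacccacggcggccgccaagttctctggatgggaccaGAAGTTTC
Hspb1: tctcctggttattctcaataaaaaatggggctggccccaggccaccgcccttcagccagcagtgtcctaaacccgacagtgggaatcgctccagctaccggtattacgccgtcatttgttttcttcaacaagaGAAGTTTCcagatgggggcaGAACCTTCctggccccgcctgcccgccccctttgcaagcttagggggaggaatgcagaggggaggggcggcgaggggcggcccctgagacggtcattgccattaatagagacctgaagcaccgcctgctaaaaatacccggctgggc
Bag2: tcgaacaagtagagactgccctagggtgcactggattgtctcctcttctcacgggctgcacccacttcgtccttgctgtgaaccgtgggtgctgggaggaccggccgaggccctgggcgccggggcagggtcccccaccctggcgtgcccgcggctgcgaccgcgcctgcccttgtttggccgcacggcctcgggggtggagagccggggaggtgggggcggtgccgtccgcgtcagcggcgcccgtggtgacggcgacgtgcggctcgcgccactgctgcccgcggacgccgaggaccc
Stub1: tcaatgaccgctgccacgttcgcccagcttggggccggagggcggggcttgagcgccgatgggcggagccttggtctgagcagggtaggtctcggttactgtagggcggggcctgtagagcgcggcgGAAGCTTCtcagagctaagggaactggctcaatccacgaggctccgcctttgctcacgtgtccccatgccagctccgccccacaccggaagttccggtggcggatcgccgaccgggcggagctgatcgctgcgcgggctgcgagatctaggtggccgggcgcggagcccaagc
A match describes letters in a window and is not a measured binding site. Bag1, Hspbp1 and Ubb had no pair in their windows.

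By the mouse annotation GENCODE vM21 (GRCm38), Hspb8 lies on chromosome 5 (116408491-116422864), Hspb1 on chromosome 5 (135887919-135889563), Cryab on chromosome 9 (50751325-50756636), Bag1 on chromosome 4 (40936398-40948294), Bag2 on chromosome 1 (33745484-33757795), Bag3 on chromosome 7 (128523616-128546981), Hspbp1 on chromosome 7 (4660521-4685068), Stub1 on chromosome 17 (25830505-25833404) and Ubb on chromosome 11 (62551171-62553213). Values are counts per gene, and how strand and multiply matching reads were handled is not given in the sources used here. Cryab overlaps Hspb2 on the opposite strand over 17% of its exon bases and Stub1 overlaps Jmjd8 over 42.3%. Reads from these shared stretches are separable only if strand was used. Hspb2 had 19 to 65 counts per library and Jmjd8 193 to 405. Of the 100-base windows of the Ubb transcript 39.3% are unique to it, since it repeats its own ubiquitin unit and resembles pseudogenes, and its level is therefore uncertain. Of these pseudogenes Gm1821 had 59 to 151 counts. Hspb8, Bag1, Bag3 and Hspbp1 share no such window with another gene and share no exon bases with one on either strand, while Bag2 overlaps Gm37905 on the opposite strand over 4.28% of its exon bases.

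Totals ran from 23354461 to 55094630 counts per library. In 4T1 given 17-DMAG, the libraries of replicates 1 and 2 were closer to each other than any other pair of replicates. Their chi-square per gene was 1.10, against 2.04 to 2.22 for the 17 other pairs. Between 65.6% and 70.8% of low counts were even, so these values were read against each other and not against 1. The counts of these 2 libraries were averaged as 1 sample, which leaves n = 2 there, n = 3 in the other groups and 17 libraries. Levels are given as CPM, the read count scaled to a common library size after TMM normalization. A single quasi-likelihood fit in edgeR gave the tests for 13507 genes, with Benjamini-Hochberg adjustment over all of them and a threshold of 0.05. The labels do not say that replicates came from separate cultures, so p-values measure the spread between these libraries. The library numbers of 4T1R1 form a block apart from those of 4T1 and 4T1R2, and the labels do not say what the numbers stand for. Whatever the blocks differ in cannot be told apart from differences in level between 4T1R1 and the others. Treated and untreated libraries of a population carry numbers of the same block. If exposure to 17-DMAG differed between the blocks, that could not be told apart from a difference in response of 4T1R1 either. In bulk RNA, fewer cells with a transcript and less transcript per cell cannot be told apart. Epithelial markers (Epcam, Cdh1, Krt8, Krt18, Krt14, Krt5) summed to 1343 to 1982 CPM, with Krt5 near 0, while leukocyte markers summed to 0.683 to 1.64 CPM, endothelial markers to 0.139 to 0.569 and muscle markers to 0 to 0.21. Fibroblast markers summed to 12.9 to 13.6 CPM in treated 4T1 against 22.2 to 24.9 in untreated 4T1, and to 23.0 to 33.7 in 4T1R1 and 4T1R2. This sum was almost all Pdgfra (mean 12.5 CPM in treated and 23.0 in untreated 4T1), while Col1a1, Col1a2, Pdgfrb, Dcn and Lum had group means of at most 0.549 CPM. The epithelial sum was 1872 to 1982 CPM in 4T1, 1343 to 1413 in 4T1R1 and 1545 to 1598 in 4T1R2. Krt8 and Krt18 carried most of its difference. Their means were 761 and 795 CPM in untreated 4T1, 526 and 458 in untreated 4T1R1, and 570 and 499 in untreated 4T1R2. In the same groups Epcam had means of 49.1, 24.5 and 45.7 CPM, Cdh1 of 360, 363 and 435, and Krt14 of 4.61, 6.92 and 11.8. The part of these markers in the results was not tested.

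The first question was how much of each transcript the cells carried. Per kilobase of exon in untreated 4T1, Bag1 was highest at 60.6 ± 0.45 CPM per kb (SD, n = 3), followed by Hspb8 at 36.2 ± 1.31. Hspbp1 at 19.9 ± 2.69 and Bag3 at 19.5 ± 0.539 could not be ordered within their spread. Bag2 stood at 13.4 ± 0.774 CPM per kb and Stub1 at 11.5 ± 0.38. These lengths take all annotated exon bases of a gene, 3059 for Bag2 and 2562 for Bag3. Their longest coding transcripts have 1860 and 2562 bases, so the order of Bag2 and Bag3 depends on the length taken. Cryab at 8.55 ± 0.648 and Ubb at 7.23 ± 0.684 came last among the tested genes. The place of Ubb is not settled, since 39.3% of its 100-base windows are unique and handling of multiply matching reads is not given. The places of Stub1 and Cryab are not settled either. They share 42.3% and 17% of their exon bases with Jmjd8 and Hspb2, and handling of strand is not given. After 17-DMAG the order in 4T1 changed: Hspb8 led at 112 ± 0.792 CPM per kb (n = 2), and Bag3 at 57.7 ± 0.334 came close to Bag1 at 63.7 ± 0.598. In treated 4T1R1 and 4T1R2, Bag1 kept the highest value, 64.4 ± 2.71 and 69.4 ± 0.693 CPM per kb, ahead of Hspb8 at 56.4 ± 1.81 and 42.6 ± 1.96.

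Hspb1, which encodes the small heat shock protein called HSP25 in mice, was nearly absent from the counts. It had 0 to 14 counts per library and 90 over all 18 libraries, did not pass the filter on low counts and was not tested. The 3 libraries of untreated 4T1 had 3, 8 and 1 counts, and the 3 of treated 4T1R1, the group with the highest mean, had 14, 4 and 6. Treated and untreated libraries overlapped in each population. Treated 4T1 (6 and 7 counts) lay above treated 4T1R2 (2, 4 and 5), but the nearest libraries stood at 0.156 and 0.154 CPM. An edgeR fit without the filter did not call that difference (adjusted p = 0.579). Of the 100-base windows of its transcript 57.3% are unique and the rest match the pseudogenes Hsp25-ps1 and Gm9817, which are not among the symbols listed, so only reads from the unique part could be placed if multiply matching reads were dropped. Hspb3, Hspb7, Odf1 and Cryaa, other small heat shock protein genes, likewise stayed under the filter with at most 8 counts in a library.

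**Figure D1:**
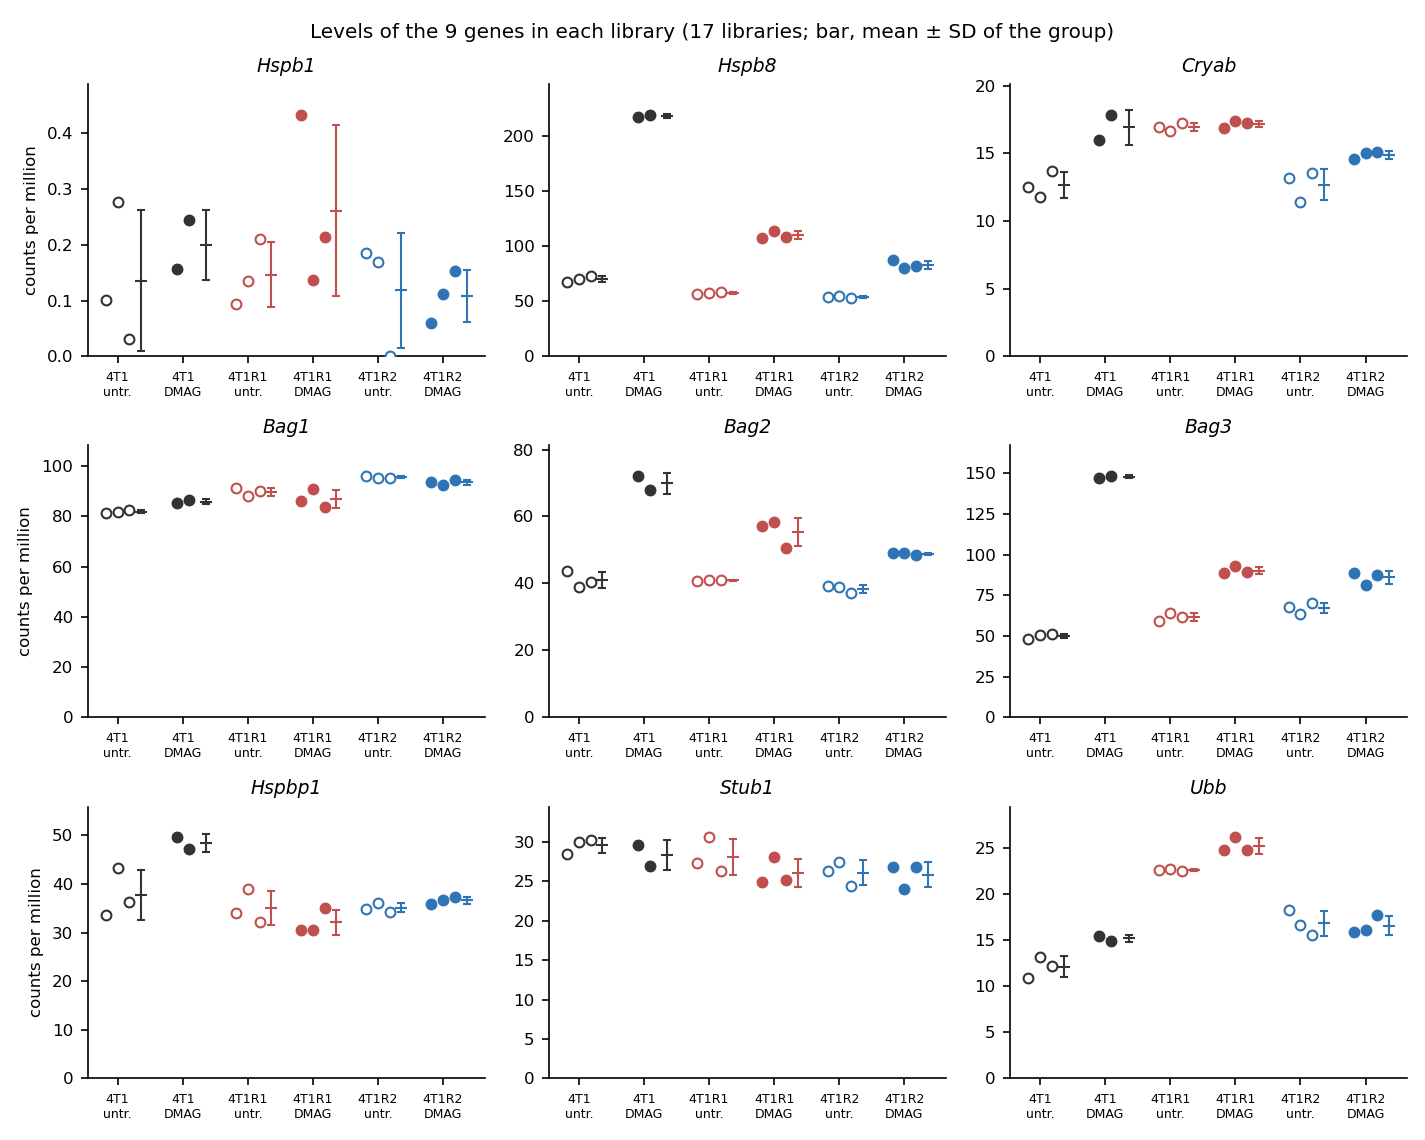
CPM (y axes, linear and from 0) of the 9 genes in 17 libraries, by population, untreated (open points) and after 17-DMAG (filled points); bars give the group's mean ± SD, and 1 point of treated 4T1 is the average of 2 libraries. Hspb8, Bag2 and Bag3 are higher after 17-DMAG in each population, most in 4T1, while Hspb1 stays under 0.5 CPM.

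17-DMAG raised 6 of the 8 tested genes in 4T1 and 3 of 8 in each of 4T1R1 and 4T1R2, and lowered none of them in any population. Over all genes tested, 18.4% were higher and 17.9% lower in 4T1, 13.9% and 14.3% in 4T1R1, and 6.18% and 4.35% in 4T1R2. The median log2 change of the 8 genes came to 0.39 in 4T1, 0.087 in 4T1R1 and 0.14 in 4T1R2, beside medians over all genes of 0.00064, -0.0086 and -0.0019. The genes that rose in all 3 populations were Hspb8, Bag3 and Bag2.

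Hspb8, the small heat shock protein that partners BAG3, had the largest response. It stood at 67.9, 70.6 and 73.0 CPM in untreated 4T1 and at 217 and 219 CPM after 17-DMAG. In 4T1R1 the untreated libraries held 56.5, 57.6 and 58.6 CPM and the treated ones 108, 114 and 108. In 4T1R2 they held 53.9, 54.8 and 52.6 CPM untreated and 87.3, 79.9 and 82.0 treated. Treated and untreated libraries did not overlap in any population, and treated 4T1 stood above every library of the selected populations. The log2 change was 1.63 ± 0.042 (SE) in 4T1, a 3.10-fold rise (adjusted p = 4.37e-30), 0.94 ± 0.040 in 4T1R1 (1.91-fold, adjusted p = 1.26e-21) and 0.63 ± 0.042 in 4T1R2 (1.55-fold, adjusted p = 4.54e-15).

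Bag3, which links HSP70 to small heat shock proteins and to autophagy, rose almost as much in 4T1. Untreated 4T1 libraries held 48.4, 50.6 and 51.0 CPM and treated ones 147 and 149. In 4T1R1 the values were 59.0, 63.9 and 61.6 CPM untreated and 88.5, 92.8 and 89.3 treated. In 4T1R2 they were 67.9, 63.7 and 70.0 CPM untreated and 88.6, 81.6 and 87.8 treated. The untreated selected populations thus stood above untreated 4T1 and the treated ones below treated 4T1, with no overlap in either case. The log2 change was 1.56 ± 0.046 (SE) in 4T1, a 2.96-fold rise (adjusted p = 5.33e-28), 0.55 ± 0.043 in 4T1R1 (1.47-fold, adjusted p = 2.43e-13) and 0.35 ± 0.043 in 4T1R2 (1.28-fold, adjusted p = 9.39e-08).

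Bag2, an inhibitor of STUB1, lay between 37.0 and 43.6 CPM in all untreated libraries. Untreated libraries held 43.6, 39.0 and 40.4 CPM in 4T1, 40.8, 41.1 and 41.0 in 4T1R1 and 39.1, 38.8 and 37.0 in 4T1R2. After 17-DMAG they held 72.2 and 67.8 CPM in 4T1, 57.1, 58.2 and 50.5 in 4T1R1 and 49.0, 49.0 and 48.5 in 4T1R2. The treated groups of the 3 populations did not overlap each other and were ordered 4T1, 4T1R1, 4T1R2. The levels of treated 4T1R2 and treated 4T1R1 were not tested against each other. The log2 response of 4T1R2 minus that of 4T1R1 was -0.084 ± 0.075 and was not called (adjusted p = 0.639). The log2 change was 0.77 ± 0.056 (SE) in 4T1 (adjusted p = 8.31e-15), 0.43 ± 0.052 in 4T1R1 (adjusted p = 2.17e-08) and 0.35 ± 0.053 in 4T1R2 (adjusted p = 9.12e-06).

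Cryab, Hspbp1 and Ubb passed the test in 4T1 and missed it in 4T1R1 and 4T1R2, and the tests of the differences follow further on. Cryab (αB-crystallin) went from 12.5, 11.8 and 13.7 CPM to 16.0 and 17.9 in 4T1, a log2 change of 0.41 ± 0.088 (SE, adjusted p = 0.000193). Its libraries held 16.7 to 17.4 CPM in 4T1R1 whether treated or not, where the log2 change was 0.016 ± 0.077. In 4T1R2 Cryab was at 13.2, 11.4 and 13.5 CPM untreated and 14.6, 15.0 and 15.1 treated, a log2 change of 0.23 ± 0.081 that missed the threshold (adjusted p = 0.0692). Hspbp1, which binds HSP70 and inhibits STUB1, went from 33.5, 43.4 and 36.2 CPM to 49.7 and 47.2 in 4T1, a log2 change of 0.36 ± 0.076 (adjusted p = 0.000142). The change of Hspbp1 was -0.13 ± 0.071 in 4T1R1 and 0.062 ± 0.071 in 4T1R2, with overlapping groups in both. Ubb, which encodes several ubiquitin units in a row, went from 10.9, 13.2 and 12.2 CPM to 15.5 and 15.0 in 4T1 (log2 change 0.33 ± 0.089, adjusted p = 0.00259). The change of Ubb was 0.16 ± 0.072 in 4T1R1 (adjusted p = 0.0978) and -0.026 ± 0.077 in 4T1R2.

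Bag1 and Stub1 did not pass the test in any population. Bag1 held 81.2 to 82.4 CPM in untreated 4T1 and 85.3 and 86.5 after 17-DMAG, and the 95% intervals of its log2 change were -0.014 to 0.15 in 4T1, -0.12 to 0.028 in 4T1R1 and -0.11 to 0.043 in 4T1R2. Stub1, the ligase on which both BAG2 and HSPBP1 act, held 24.0 to 30.7 CPM over all 17 libraries. Its intervals were -0.21 to 0.093 in 4T1, -0.25 to 0.029 in 4T1R1 and -0.15 to 0.13 in 4T1R2, and each upper bound lies under the lower bound for Bag2 in the same population (0.66, 0.33 and 0.24).

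**Figure D2:**
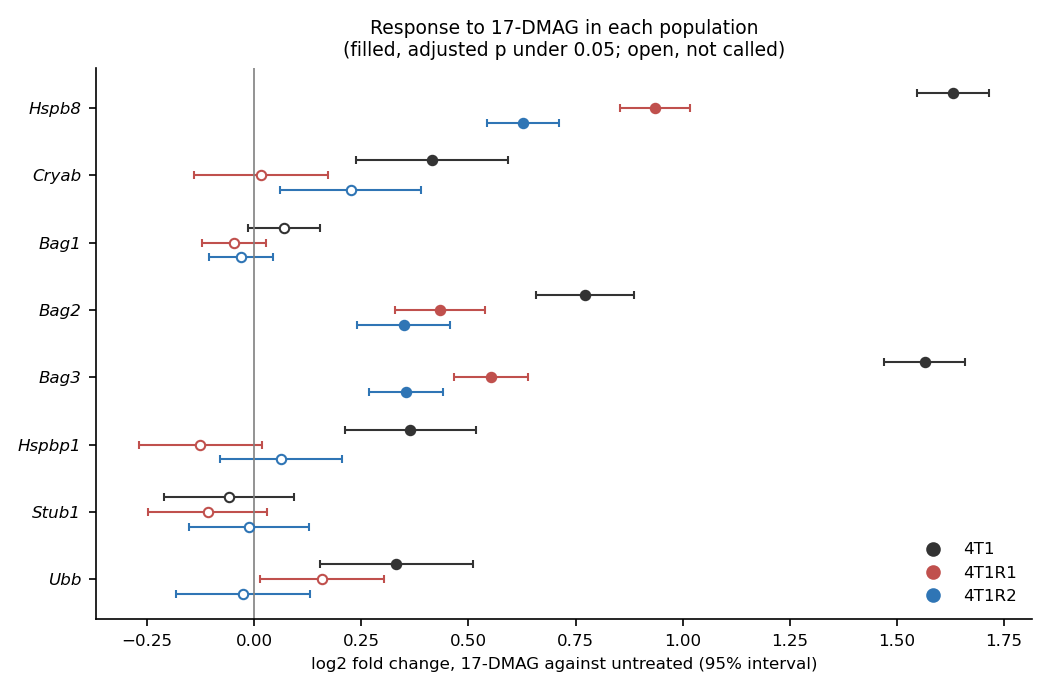
Log2 fold change of 17-DMAG against untreated cells (x axis) for the 8 tested genes in each population, with 95% intervals; filled points passed an adjusted p of 0.05. Hspb8, Bag2 and Bag3 lie right of 0 in all 3 populations with 4T1 farthest right, and Cryab, Hspbp1 and Ubb are filled in 4T1 alone.

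Whether the responses differed between populations was tested directly, as the difference of the log2 changes. Against 4T1, 5 of the 8 genes responded less in 4T1R1 and 5 responded less in 4T1R2, and none responded more. Of all genes, 9.08% were lower and 9.16% higher in the test for 4T1R1, and 8.16% and 9.62% in that for 4T1R2. Both tests share the 4T1 libraries. The difference was largest for Bag3, -1.01 ± 0.063 (SE) in 4T1R1 (adjusted p = 4.37e-16) and -1.21 ± 0.063 in 4T1R2 (adjusted p = 8.45e-19). For Hspb8 it was -0.70 ± 0.059 (adjusted p = 3.42e-12) and -1.003 ± 0.059 (adjusted p = 3.80e-17). For Bag2 it was -0.34 ± 0.077 (adjusted p = 0.0012) and -0.42 ± 0.078 (adjusted p = 6.80e-05). Hspbp1 gave -0.49 ± 0.10 in 4T1R1 (adjusted p = 0.000553) and -0.30 ± 0.10 in 4T1R2 (adjusted p = 0.0359).

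The responses of Cryab and Ubb each differed from 4T1 in 1 of the selected populations. Cryab gave -0.40 ± 0.12 in 4T1R1 (adjusted p = 0.0128), which leaving out replicate 3 of treated 4T1 moved to -0.32 (adjusted p = 0.123), and -0.19 ± 0.12 in 4T1R2 (adjusted p = 0.309). Ubb gave -0.36 ± 0.12 in 4T1R2 (adjusted p = 0.0276) and -0.17 ± 0.11 in 4T1R1 (adjusted p = 0.33). In 4T1R2 the calls for Hspbp1 and Ubb were not firm: the first was lost in 7 of the 18 fits that left out 1 library (adjusted p up to 0.136) and the second in 6 (up to 0.107), and the closing section names those libraries. The 3 remaining calls there, Hspb8, Bag2 and Bag3, were kept in all 18. Between the selected populations, Hspb8 alone responded less in 4T1R2 than in 4T1R1, by -0.31 ± 0.058 (adjusted p = 0.00109), where 0.918% of all genes were lower and 1.21% higher. For Bag3 that difference was -0.20 ± 0.061 (adjusted p = 0.0736), and it passed the threshold without replicate 2 of untreated 4T1R1 (adjusted p = 0.0435) or of untreated 4T1R2 (adjusted p = 0.0477).

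Scaling moved some of these calls. With libraries scaled by total counts alone, the median of all genes moved to -0.11 for the response in 4T1, to 0.15 for the difference in response between 4T1R1 and 4T1 and to 0.18 for treated 4T1R1 against treated 4T1. Calls over all genes then split 1193 higher to 4322 lower for the response in 4T1 (2490 to 2423 under TMM), 2356 to 1316 in 4T1R1 (1874 to 1938) and 367 to 1146 in 4T1R2 (835 to 588). For the difference from 4T1 they split 3536 higher to 419 lower in 4T1R1 (1237 to 1227) and 2091 to 631 in 4T1R2 (1299 to 1102), and 61 to 609 between 4T1R2 and 4T1R1 (164 to 124). Treated cells against treated 4T1 split 5794 to 1864 for 4T1R1 (3386 to 3732) and 4587 to 2767 for 4T1R2 (3489 to 3776). Under that scaling Bag3, Hspb8 and Hspbp1 kept the call for 4T1R1 while Bag2 and Cryab lost it, and Bag3, Hspb8 and Bag2 kept it for 4T1R2 while Hspbp1 and Ubb lost it. The smaller response of Bag3 in 4T1R2 than in 4T1R1 was called under that scaling (-0.28, adjusted p = 0.00372).

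Before treatment, the selected populations carried more Bag3, Bag1 and Ubb and less Hspb8 than 4T1. In untreated 4T1R1, 4 of the 8 genes were higher and 1 lower, where 25.2% of all genes were higher and 27.5% lower. In untreated 4T1R2, 3 were higher and 2 lower, where 25.6% and 26.9% of all genes were. The share of members called is not far above that of all genes. The median log2 difference of the 8 genes was 0.067 in 4T1R1 and -0.044 in 4T1R2.

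Bag3 was higher by 0.30 ± 0.045 (log2, SE) in 4T1R1 (adjusted p = 4.17e-07) and by 0.43 ± 0.045 in 4T1R2 (adjusted p = 1.16e-10). Its usual partner Hspb8 went the other way, -0.29 ± 0.041 in 4T1R1 (adjusted p = 1.11e-07) and -0.39 ± 0.042 in 4T1R2 (adjusted p = 2.22e-10). Ubb showed the largest difference, with 22.5 to 22.8 CPM in untreated 4T1R1 and 15.6 to 18.3 in untreated 4T1R2 against 10.9 to 13.2 in untreated 4T1. The log2 difference of Ubb was 0.90 ± 0.077 (adjusted p = 4.50e-13) and 0.48 ± 0.081 (adjusted p = 3.21e-06), and both untreated selected populations held at least as much Ubb as 4T1 after 17-DMAG (15.0 and 15.5 CPM). Of the 100-base windows of Ubb 39.3% are unique, and the part of multiply matching reads in these differences was not tested. Bag1 was higher by 0.13 ± 0.037 (adjusted p = 0.0023) and 0.22 ± 0.037 (adjusted p = 2.55e-06). Cryab was higher in 4T1R1, by 0.42 ± 0.080 (adjusted p = 2.04e-05), at 0.0084 ± 0.084 in 4T1R2, and so stood in untreated 4T1R1 at the level that 4T1 had after treatment.

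Stub1 was lower in untreated 4T1R2 by -0.18 ± 0.069 (adjusted p = 0.0246), a call lost without replicate 2 or 3 of untreated 4T1 (adjusted p = 0.0611 and 0.0819) or replicate 3 of untreated 4T1R2 (adjusted p = 0.144). Bag2 and Hspbp1 were not called in either population. Hspbp1 passed the threshold without replicate 1 of untreated 4T1 (adjusted p = 0.0343 in 4T1R1 and 0.0406 in 4T1R2) or replicate 2 of untreated 4T1R1 (adjusted p = 0.0269 in 4T1R1), with log2 differences between -0.19 and 0.0086 over all fits that left out 1 library. Between the untreated selected populations, Bag3 was higher in 4T1R2 than in 4T1R1 by 0.13 ± 0.044 (adjusted p = 0.0168), and Ubb and Cryab were lower, by -0.42 ± 0.075 (adjusted p = 1.45e-05) and -0.41 ± 0.081 (adjusted p = 6.03e-05). Of all genes 19.7% were higher and 19.0% lower there. The call for Bag3 was lost without replicate 1 of untreated 4T1R1 (adjusted p = 0.104) and without replicate 1 (adjusted p = 0.0573) or 3 (adjusted p = 0.117) of untreated 4T1R2. That for Bag1, 0.090 ± 0.037, missed the threshold (adjusted p = 0.0509) and passed it without replicate 2 of treated 4T1R1 (adjusted p = 0.0463).

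In cells under 17-DMAG the order of the populations turned for Bag3. Treated 4T1R1 and treated 4T1R2 each had 4 of the 8 genes lower and 1 higher than treated 4T1, where 27.6% and 28.0% of all genes were lower and 25.1% and 25.8% higher. Hspb8 was lower by -0.99 ± 0.041 (log2, SE) in 4T1R1 (adjusted p = 5.01e-23) and -1.39 ± 0.041 in 4T1R2 (adjusted p = 3.54e-28). Bag3 was lower by -0.71 ± 0.045 (adjusted p = 3.54e-17) and -0.78 ± 0.045 (adjusted p = 1.30e-18). Bag2 was lower by -0.34 ± 0.055 and -0.52 ± 0.055, and Hspbp1 by -0.60 ± 0.076 and -0.41 ± 0.075. The higher gene was Ubb in 4T1R1, by 0.73 ± 0.084 (adjusted p = 1.03e-09), and Bag1 in 4T1R2, by 0.12 ± 0.041 (adjusted p = 0.0102).

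**Figure D3:**
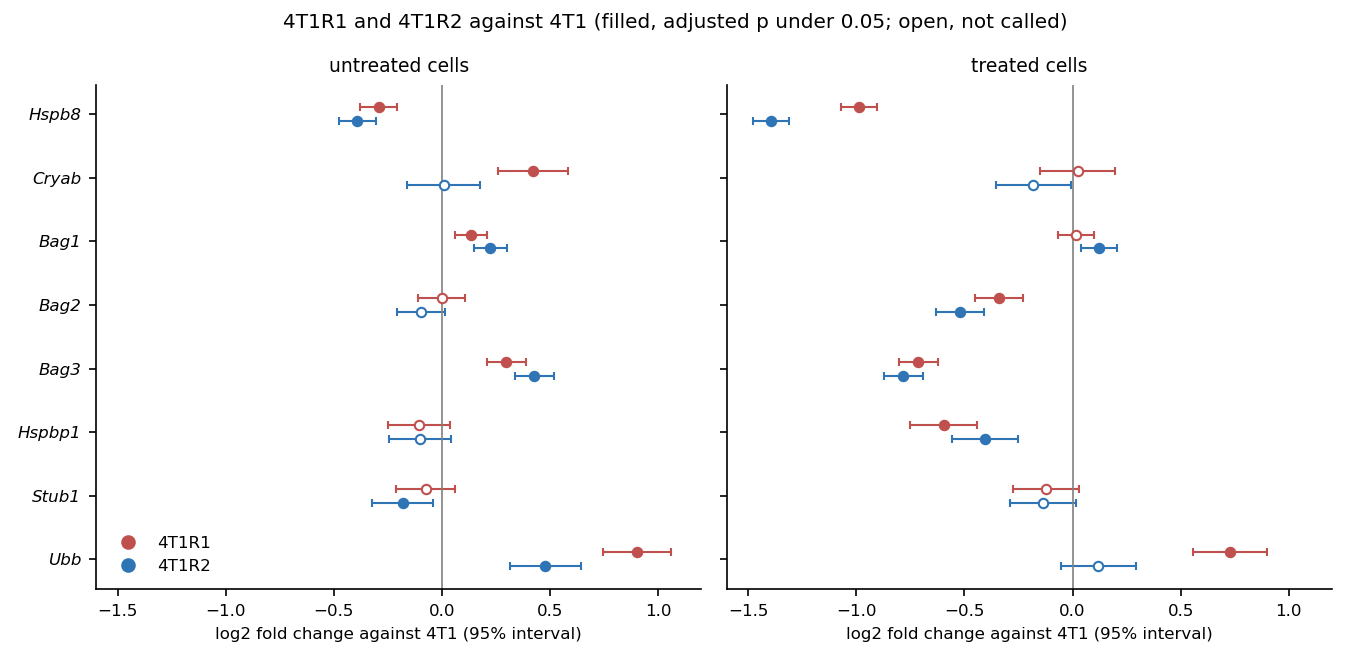
Log2 fold change of 4T1R1 and 4T1R2 against 4T1 (x axes) in untreated cells (left) and in cells under 17-DMAG (right) for the 8 tested genes, with 95% intervals; filled points passed an adjusted p of 0.05. Bag3 lies right of 0 in untreated cells (0.30 and 0.43) and left of 0 in treated cells (-0.71 and -0.78), while Hspb8 lies left of 0 in both.

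Ratios of counts within a library do not depend on scaling between libraries, and were compared between groups as a description. The count ratio of Hspb8 to Bag3 was 1.39 to 1.43 in untreated 4T1 and 1.48 in both treated samples. It was lower in the selected populations, 0.901 to 0.958 in untreated 4T1R1 and 0.751 to 0.861 in untreated 4T1R2, and 1.21 to 1.23 and 0.935 to 0.985 after treatment. No library of 4T1R1 or 4T1R2 reached the lowest 4T1 value. The ratio of Bag3 to Bag1, whose proteins compete for HSP70, went from 0.597 to 0.619 in untreated 4T1 to 1.72 and 1.73 after 17-DMAG. In 4T1R1 it went from 0.646 to 0.726 untreated to 1.02 to 1.06 treated, and in 4T1R2 from 0.668 to 0.735 untreated to 0.881 to 0.948 treated. The ranges of untreated and treated libraries did not overlap in any population.

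**Figure D4:**
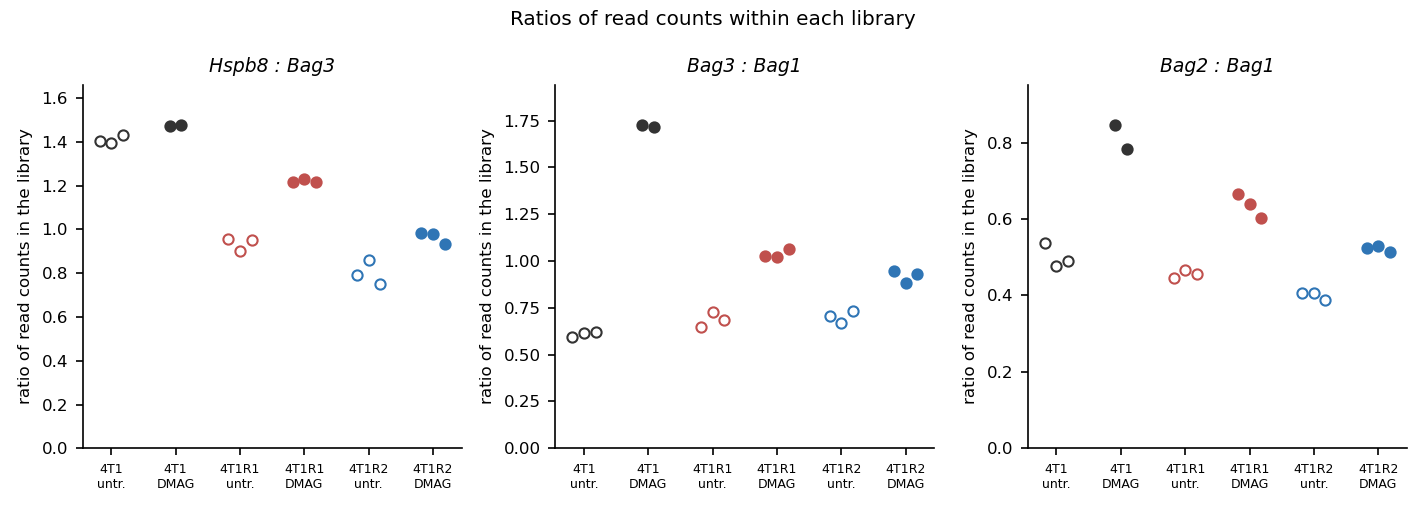
Ratio of read counts within each library (y axes, linear and from 0) for Hspb8 to Bag3, Bag3 to Bag1 and Bag2 to Bag1, by population, untreated (open) and after 17-DMAG (filled). The Hspb8 to Bag3 ratio is 1.39 to 1.48 in all 4T1 samples and at most 1.23 in the selected populations, and the ratios to Bag1 are higher after 17-DMAG in each population.

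The count ratio of Bag2 to Bag1 was 0.476 to 0.537 in untreated 4T1 and 0.784 and 0.846 after 17-DMAG. It went from 0.447 to 0.467 untreated to 0.602 to 0.664 treated in 4T1R1, and from 0.389 to 0.407 untreated to 0.513 to 0.529 treated in 4T1R2, again with no overlap within a population. Rps27a encodes ubiquitin fused to a ribosomal protein, and 37.4% of the 100-base windows of its transcript are unique. It was higher after 17-DMAG in 4T1 by 0.14 ± 0.031 (log2, SE, adjusted p = 0.000326). Its change was -0.011 ± 0.028 in 4T1R1 and 0.043 ± 0.028 in 4T1R2, neither called.

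The partners of these genes were followed as lists, to be read against the 18.4%, 13.9% and 6.18% of all genes that rose and the 17.9%, 14.3% and 4.35% that fell in 4T1, 4T1R1 and 4T1R2. Of the 6 HSP70 and HSP40 genes, 5 rose in 4T1 and 4 in each of 4T1R1 and 4T1R2, with median log2 changes of 2.04, 1.12 and 0.98. Hspa8, the constitutive HSP70, rose by 2.32 ± 0.026 (SE), 1.95 ± 0.024 and 1.51 ± 0.024. Hspa1b, an inducible HSP70 whose transcript is 50.1% unique because of its copy Hspa1a, rose by 5.11 ± 0.049, 3.23 ± 0.048 and 2.29 ± 0.047. Dnajb1, an HSP40 that delivers clients to HSP70, rose by 2.19 ± 0.050, 1.34 ± 0.048 and 1.01 ± 0.049. The other nucleotide exchange factors of HSP70, Hsph1, Hspa4 and Hspa4l, rose in all 3 populations (3 of 3), Hsph1 by 2.72 ± 0.035, 1.75 ± 0.032 and 1.18 ± 0.032.

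The 3 remaining BAG genes did not rise in 4T1: Bag5 fell by 0.20 ± 0.055 on the log2 scale (adjusted p = 0.00355), while Bag4 and Bag6 were at -0.0085 and -0.029. In 4T1R1 Bag4 rose by 0.14 ± 0.047 and Bag6 fell by 0.23 ± 0.034, and none of the 3 was called in 4T1R2. Of the 3 testable other small heat shock protein genes (Hspb2, Hspb6, Hspb9) none was called in any response. Hspb6 was higher in untreated 4T1R1 and 4T1R2 than in 4T1, by 0.67 ± 0.11 (adjusted p = 2.63e-06) and 0.33 ± 0.12 (adjusted p = 0.015).

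Among 9 testable genes of autophagy and ubiquitin shuttling, 6 rose in 4T1 and none fell, 2 rose and 2 fell in 4T1R1, and 2 rose and 3 fell in 4T1R2. The counts in 4T1R1 lie near the shares of all genes, 13.9% higher and 14.3% lower. Sqstm1, which encodes the autophagy receptor p62, rose by 0.85 ± 0.034 in 4T1 (adjusted p = 1.56e-23) and stood at -0.059 ± 0.030 in 4T1R1 and -0.12 ± 0.029 in 4T1R2, the latter called (adjusted p = 0.00336). Its untreated level came to 200 ± 3.33 CPM in 4T1, 461 ± 8.24 in 4T1R1 and 546 ± 23.6 in 4T1R2 (n = 3 each), and 360 ± 17.0 in treated 4T1 (n = 2). Ubqln1, a ubiquilin that carries ubiquitinated proteins to the proteasome, rose in all 3 by 0.65 ± 0.032, 0.43 ± 0.030 and 0.33 ± 0.030. Flnc, filamin C, a BAG3 client in muscle, did so by 0.62 ± 0.033, 0.28 ± 0.030 and 0.31 ± 0.031. Of 12 testable genes of ubiquitin activation, conjugation and recycling, 3 rose and 1 fell in 4T1, 6 rose and 1 fell in 4T1R1, and 1 rose in 4T1R2, with median log2 changes of -0.024, 0.080 and 0.069. The numbers that rose in 4T1 and 4T1R2 lie near the shares of all genes (18.4% and 6.18%), and 13.9% of all genes rose in 4T1R1.

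Over the 37 testable partner genes, 18 rose and 2 fell in 4T1, 16 rose and 4 fell in 4T1R1, and 10 rose and 3 fell in 4T1R2, with median log2 changes of 0.10, 0.12 and 0.058. The log2 response was lower than that of 4T1 for 13 genes and higher for 4 in 4T1R1, and lower for 13 and higher for 2 in 4T1R2. Of all genes 9.08% had a lower and 9.16% a higher response in 4T1R1, and 8.16% and 9.62% in 4T1R2, so the counts of partner genes with a higher response lie near the background. In untreated cells 9 of the 37 were higher and 20 lower in 4T1R1 than in 4T1, and 14 higher and 16 lower in 4T1R2, where 25.2% of all genes were higher and 27.5% lower in 4T1R1 and 25.6% and 26.9% in 4T1R2.

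**Figure D5:**
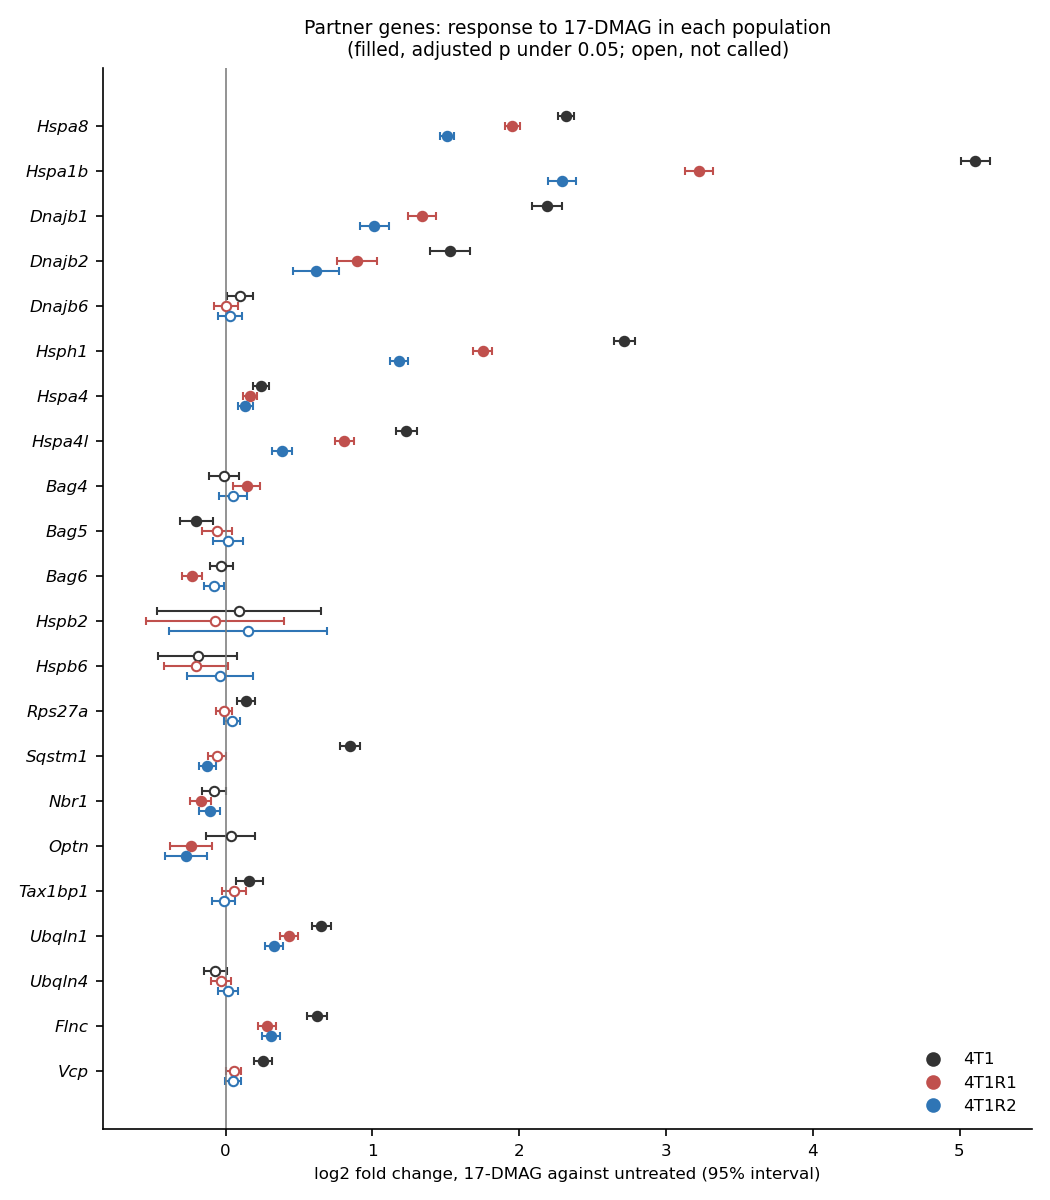
Log2 fold change of 17-DMAG against untreated cells (x axis) in each population for 22 partner genes from the lists, with 95% intervals; filled points passed an adjusted p of 0.05. Hspa1b, Hsph1, Hspa8 and Dnajb1 lie farthest right in 4T1, and Sqstm1 lies right of 0 in 4T1 (0.85) and near 0 in 4T1R1 and 4T1R2.

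The genes with the pattern most like each member were found by the root mean square distance between centred log2 group means over the 6 groups. Nearest to Hspb8 were Gm10069 (0.163), Igf2bp1 (0.168) and Hspe1 (0.173), which encodes the mitochondrial co-chaperonin HSP10. Nearest to Bag3 were Mir1967 (0.113), Aldh18a1 (0.120) and Calr3 (0.124), and nearest to Bag2 were Rab26 (0.0423), 9130008F23Rik (0.0495) and Swt1 (0.0605). Among the 8 genes themselves, Hspb8 and Bag3 lay 0.324 apart, Bag2 and Bag3 0.242, and Hspb8 and Ubb, the farthest pair, 0.792. Bag1 and Stub1 lay closest, at 0.142, and both varied little. The groups share depth and scaling, and these distances are a description.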

How the data were processed

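The 18 stranded, ribosomal RNA-depleted libraries came from 4T1, 4T1R1 and 4T1R2 with and without 17-DMAG. The authors aligned reads with STAR to mm10 (GRCm38) and counted them per gene with featureCounts (Subread 1.6.2, per the submitters' processing notes, with bcl2fastq 2.20), and deposited whole-number counts without normalization. Between 65.6% and 70.8% of low counts were even. Rn45s took 9.54% to 15.6% of counts.

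The member genes and the gene lists were chosen with earlier results of these data known. Genes named were the 9 members, the partner lists, the cell type markers and, for each called member, the 3 genes of nearest pattern. Some list genes are not reported here. Genes were kept by filterByExpr, scaled by TMM and tested with edgeR 4.0.16 (R 4.3.3), as group means without an intercept in 17 libraries, and this code was tested on simulated data. The common biological coefficient of variation was 0.0376. Alternatives were RLE scaling, total counts, removal of Rn45s, no filter, a minimum of 10 counts, DESeq2 1.42.0, only the groups compared, 18 separate libraries, the replicate number as a block, and each library left out. Replicate numbers did not pair the libraries. Python 3.11.15 with matplotlib 3.10.9 drew the figures.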

Additional observations from a re-analysis of the deposited data

Results flagged for a closer look

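The response to 17-DMAG differed between populations, by the test of the difference itself, in 11 cases among the 8 tested genes. Against 4T1, the log2 response of 4T1R1 was different by -0.70 for Hspb8, -0.40 for Cryab, -0.34 for Bag2, -1.01 for Bag3 and -0.49 for Hspbp1. That of 4T1R2 was different by -1.003 for Hspb8, -0.42 for Bag2, -1.21 for Bag3, -0.30 for Hspbp1 and -0.36 for Ubb. Between the selected populations, Hspb8 responded less in 4T1R2, by -0.31. All 11 differences are smaller responses in the population named, and the sets against 4T1 share its libraries. Groups of 3 libraries were too small for a test of single outlying libraries.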

How the results depend on the processing

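Of 88 member values, 46 passed the threshold, and none of these 46 changed sign under any of the 27 alternatives. With total counts alone, the number of members called was 3 rather than 5 for the difference in response between 4T1R1 and 4T1, 3 rather than 5 for 4T1R2 and 4T1, and 2 rather than 1 for 4T1R2 and 4T1R1. The call added between 4T1R2 and 4T1R1 was that for Bag3. Against untreated 4T1, leaving out 1 library at a time gave 5 to 6 members called in untreated 4T1R1 and 4 to 6 in untreated 4T1R2. It gave 2 to 4 in untreated 4T1R2 against 4T1R1, and 4 to 5 for the difference in response between 4T1R1 and 4T1. For that difference it gave 3 to 5 for 4T1R2 and 4T1 and 1 to 2 for 4T1R2 and 4T1R1. The call for Hspbp1 in the former was lost without replicate 1 or 3 of untreated 4T1, replicate 1 or 2 of untreated or of treated 4T1R2, or replicate 3 of treated 4T1, and with DESeq2 (adjusted p = 0.0506). That for Ubb was lost without replicate 1 of untreated 4T1, replicate 1 of untreated 4T1R2, replicate 2 or 3 of treated 4T1, or replicate 1 or 2 of treated 4T1R2. Treating the 18 libraries as separate called Stub1 lower in treated 4T1R2 than in treated 4T1 (adjusted p = 0.0359). Total counts alone also called Ubb higher for the response in 4T1R1 (adjusted p = 0.0441) and in treated 4T1R2 against 4T1 (0.0381), and Bag1 in treated 4T1R1 against 4T1 (0.000216). Bag1 in untreated 4T1R2 against 4T1R1 passed with RLE (adjusted p = 0.0463), a minimum of 10 counts (0.0398), DESeq2 (0.0377) and 18 libraries (0.0429). The cause of these changes was not tested. Replicate numbers did not pair the libraries (correlations of same-numbered deviations -0.0716 to 0.059 over 45 pairs), and the fit with a replicate block changed no call, with 6 members called for the response in 4T1.

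The values that changed sign were small and uncalled. With total counts alone these were Bag1 for the response in 4T1 (-0.046), Bag2 in untreated 4T1R1 against 4T1 (0.025), Hspbp1 in untreated 4T1R2 against 4T1R1 (-0.0029), Stub1 (0.10) and Bag1 (0.032) for the difference between 4T1R1 and 4T1, Bag1 for that between 4T1R2 and 4T1R1 (-0.063), and Stub1 in treated 4T1R1 against 4T1 (0.051). Bag2 in untreated 4T1R1, -0.0016 in the fit reported, was 0.0014 with RLE, 0.0014 without Rn45s, 0.0025 with no filter, 0.0040 with a minimum of 10 counts, 0.0015 with DESeq2 and 0.0083 with only the groups compared. Hspbp1 in untreated 4T1R2 against 4T1R1 was -0.0028 with no filter. Leaving out 1 library gave -0.085 to 0.0018 for the response of Stub1 in 4T1 and -0.055 to 0.040 in 4T1R2, and -0.078 to 0.042 for Ubb in 4T1R2. In untreated cells against 4T1 it gave -0.036 to 0.045 for Bag2 and -0.19 to 0.0048 for Hspbp1 in 4T1R1, and -0.18 to 0.0086 for Hspbp1 and -0.040 to 0.075 for Cryab in 4T1R2. It gave -0.055 to 0.086 for Hspbp1 in untreated 4T1R2 against 4T1R1, -0.11 to 0.016 (4T1R1) and -0.010 to 0.099 (4T1R2) for the difference in response of Stub1 from 4T1, -0.0088 to 0.050 for that of Bag1 between 4T1R2 and 4T1R1, and -0.016 to 0.042 for Bag1 in treated 4T1R1 against 4T1. With no filter, Hspb1 gave a log2 response of 0.55 in 4T1 (adjusted p = 0.826), and its counts are too few for its change to be detectable at this depth.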
